A study of Mus musculus with 6 samples.

Results

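Glycolysis, glycogen and pyruvate entry genes were followed in RNA-seq counts of stromal cells from MO5 tumors. The group holds 35 genes of the 53801 in the deposited table, taken by gene name. It covers glucose uptake (2 genes), upper glycolysis (12), lower glycolysis (6), lactate (2), glycogen (5) and the entry of pyruvate into mitochondria (8). All 35 had enough counts to be among the 15133 genes tested. Aldoa is named on a second row (ENSMUSG00000114515) with between 1 and 14 counts per library, which was left out.

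The libraries were made from PDPN+PDGFRα+ cells, sorted after CD45+ and CD31+ cells had been excluded, from subcutaneous tumors of MO5, a B16 melanoma line that carries the ovalbumin gene. There were 3 libraries of each of 2 groups. DTR stands for ADAM12-DTR mice, in which the Adam12 promoter drives the receptor for diphtheria toxin (DT) so that DT kills ADAM12+ cells, and Ctrl for DTR- mice, which carry no receptor. Mice of both groups were given DT, were on the C57Bl/6 background and were 8 to 12 weeks old at implantation. The authors' methods give 100 ng of DT per day, and their staining experiments started it on day 10. Stromal cells that do not switch on Adam12 are left in the host, and the number of mice behind a library is not stated.

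Glucose enters cells through GLUT transporters and is split by the upper steps of glycolysis, which spend ATP, into triose phosphates. The lower steps return ATP and end in pyruvate. Pyruvate is reduced to lactate by lactate dehydrogenase or carried into mitochondria, where pyruvate dehydrogenase turns it into acetyl-CoA, and cells may also store glucose as glycogen. In solid tumors, low oxygen is known to raise many glycolytic genes through HIF.

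Counts per library ran from 22339635 to 34271929, and 3 counts, the floor used here, correspond to at most 0.134 CPM before scaling. CPM gives the count of a gene relative to the total of its library, with totals scaled by TMM. Adam12 was counted at 216, 181 and 175 CPM in the Ctrl libraries and at 165, 151 and 112 CPM in the DTR libraries. The label was checked against marker genes. The 12 fibroblast genes, Pdgfra and Pdpn among them, were all tested and summed to between 5452 and 14161 CPM in Ctrl and between 5960 and 14594 CPM in DTR. The 12 pigment-cell genes summed to between 19236 and 22144 CPM in Ctrl and between 18101 and 21213 CPM in DTR, so RNA of melanoma cells was abundant in every library. The values below are therefore those of a mixture, in which fewer cells of a type and less RNA per cell cannot be told apart.

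Most enzymes of glycolysis and lactate dehydrogenase A had lower values in DTR than in Ctrl. Of the 20 genes of glycolytic enzymes and lactate dehydrogenase, 18 had a log2 fold change below 0, and of the 8 genes of pyruvate entry, 2 did, against 50.4% of all genes tested. The summed level of lower glycolysis was 2596 ± 113 CPM in Ctrl and 1954 ± 194 CPM in DTR (SD, n = 3). Of the 35 members, 12 had all 3 DTR libraries below all 3 Ctrl libraries (34.3%, against 8.18% of all genes tested) and 4 had all above (11.4%, against 6.32%), and 11 of the lower ones were enzymes of glycolysis or lactate dehydrogenase A. The other lower one was glycogen synthase, Gys1. No member passed the test over all genes.

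Differences between DTR and Ctrl were tested with the two-sided quasi-likelihood test of edgeR, and p-values were adjusted by Benjamini-Hochberg over the genes tested (SE, standard error). An adjusted p under 0.05 was reached by 0 members and by 0 of the 15133 genes (0% of genes tested), and the lowest adjusted p of a member was 0.602. DESeq2's Wald test passed 31 of 20360 genes with an adjusted p (0.152%) and 0 members, whose lowest adjusted p was 0.186, for Gapdh. At an unadjusted p under 0.05, 10 members (28.6%) were lower in DTR, against 4.11% of all genes tested, and 2 (5.71%) were higher, against 3.81%. Groups did not overlap for 12 lower members (34.3%), against 8.18% of all genes, and for 4 higher members (11.4%), against 6.32%. The log2 fold change of DTR over Ctrl was below 0 for 25 members (71.4%), against 50.4% of all genes. The count of 10 rests on single libraries, since it was 5 without Ctrl replicate 1 and 6 without DTR replicate 3, against 3.19% and 3% of all genes under the same fits. Scaling also moves the split over all genes, from 622 lower and 577 higher to 429 and 674 with library size alone (7 members lower and 2 higher) and to 1131 and 327 with an offset for genomic span (13 members lower and 1 higher). The members share libraries and are no independent samples of the comparison.

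**Figure D1:**
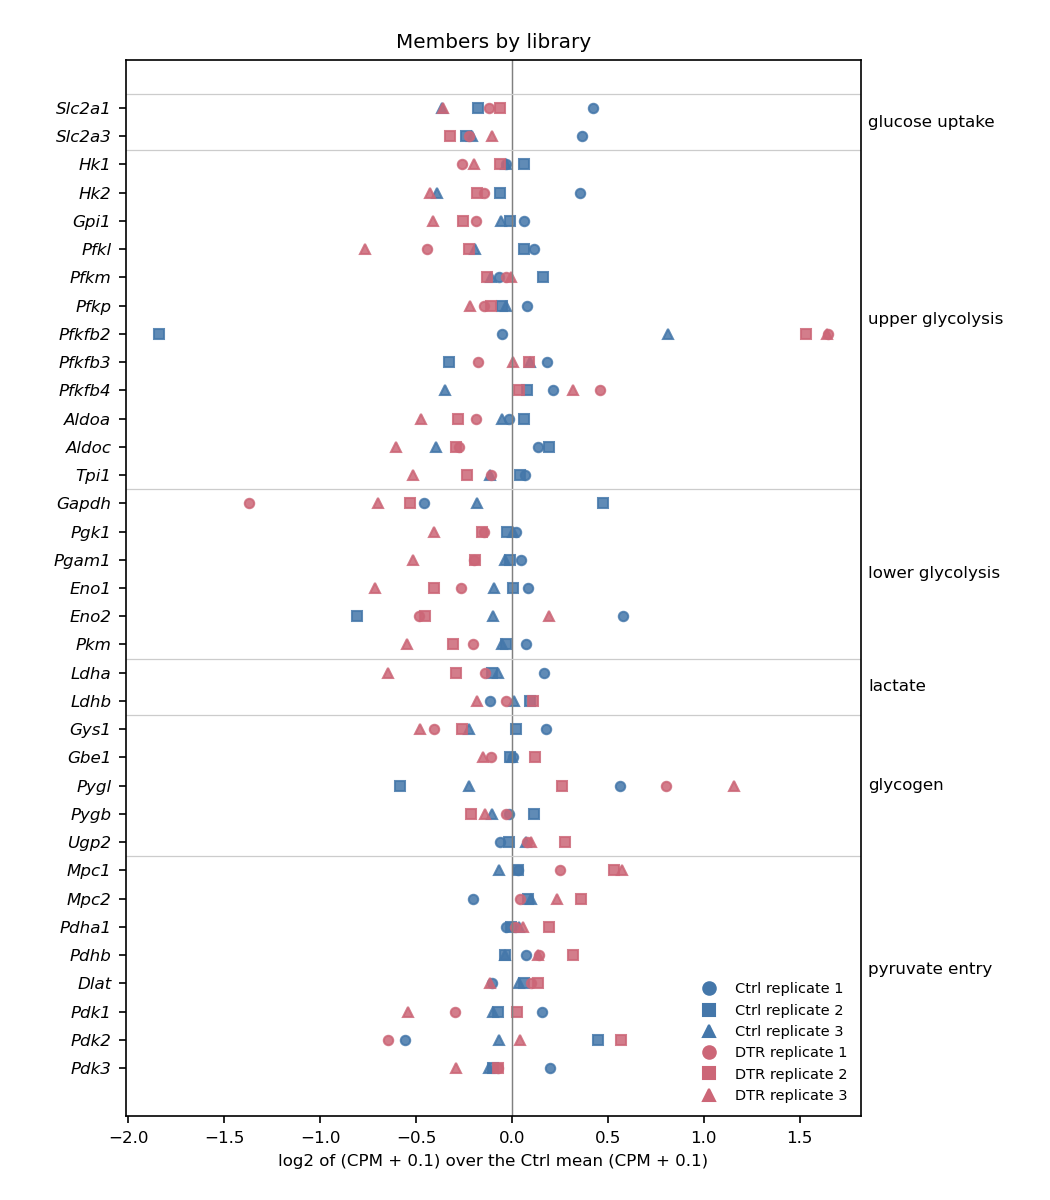
The 35 members by step (vertical axis), with 1 point for each library, as the log2 of CPM plus 0.1 over the Ctrl mean plus 0.1 (horizontal axis). Points of DTR (red) lie left of those of Ctrl (blue) for 12 members, mostly of glycolysis, and right of them for Pfkfb2, Ugp2, Mpc1 and Pdhb.

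The median log2 fold change was -0.17 over the members and -0.00290 over all genes tested. By step it was -0.20 for glucose uptake, -0.21 for upper glycolysis, -0.32 for lower glycolysis, -0.19 for lactate, -0.04 for glycogen and 0.08 for pyruvate entry. Ctrl replicate 1 held the highest value for 17 of 35 members, where it held the highest for 16% of all genes, and DTR replicate 3 the lowest for 18 of 35, where it held the lowest for 23.2% of all genes. Without Ctrl replicate 1 the median over the members was -0.09.

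**Figure D2:**
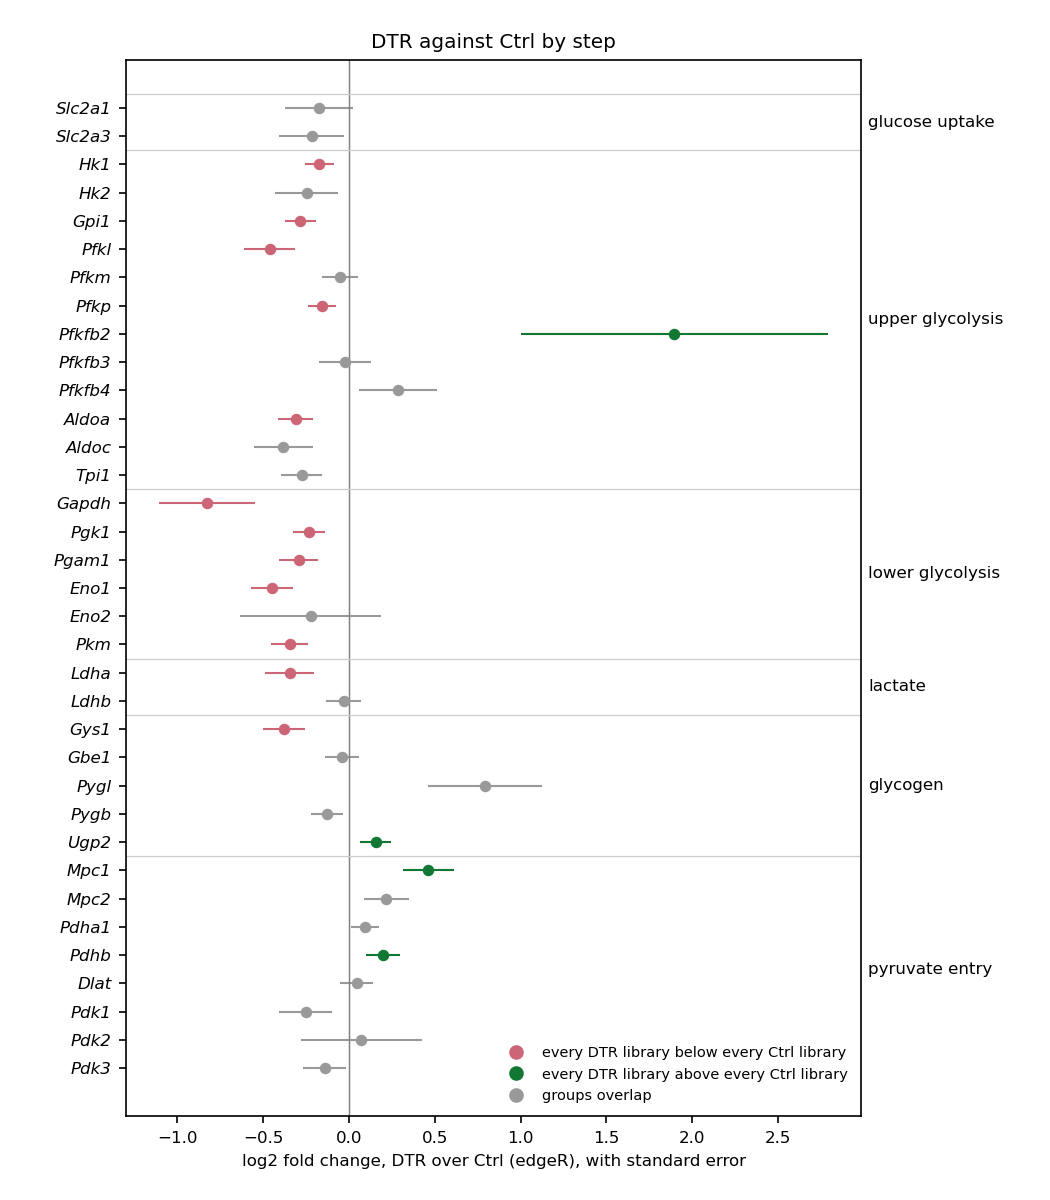
The edgeR log2 fold change of DTR over Ctrl (horizontal axis) with its SE for each member, by step (vertical axis). Members of lower glycolysis all lie below 0, from -0.82 for Gapdh to -0.22 for Eno2, and of the 8 members of pyruvate entry 6 lie above 0 and Pdk1 (-0.25) and Pdk3 (-0.14) below.

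The letters ACGTG are a common core of hypoxia response elements, and the starts of the members were searched for it on both strands. Of the members, 34 were matched in RefSeq's promoters (GRCm38.p6, 250 bases before to 50 after a start) and Slc2a3 was not. The letters ACGTG, which are part of the E-box CACGTG, stood at 1 or more starts of 19 of the 34 members (55.9%), against 28.8% of the 10844 tested genes that were matched and 21.8% of all 27025 genes. Counted by promoter, since genes differ in their number of starts, it stood in 23 of 52 member promoters (44.2%), against 24.7% of those of genes tested and 19.6% of all 32851 promoters. CACGTG stood in 5 of the 52 (9.62%), against 9.5% and 7.15%. Matches were held by 7 of the 12 members without overlap that were lower in DTR and by 12 of the other 22, among them 3 of the 4 that were higher in DTR without overlap (Pfkfb2, Ugp2 and Pdhb). Gpi1, Pfkl, Pfkp, Eno1 and Gys1, all lower without overlap, held none. A match is a stretch of letters, other forms of the element were not searched, and binding was not measured.

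The starts of 6 genes are printed below, 5′ to 3′ on the strand of the gene, for 5 of the 12 members that were lower in DTR without overlap and for Mpc1, 1 of the 4 that were higher, as examples with and without the letters. Capitals mark ACGTG or its reverse complement. Where a gene has several starts, the one with most matches is shown. They are Aldoa (chr7:126799129-126799428, minus strand), Pgk1 (chrX:106186850-106187149, plus), Eno1 (chr4:150236458-150236757, plus), Pkm (chr9:59656977-59657276, plus), Ldha (chr7:46845554-46845853, plus) and Mpc1 (chr17:8283537-8283836, plus).
Aldoa: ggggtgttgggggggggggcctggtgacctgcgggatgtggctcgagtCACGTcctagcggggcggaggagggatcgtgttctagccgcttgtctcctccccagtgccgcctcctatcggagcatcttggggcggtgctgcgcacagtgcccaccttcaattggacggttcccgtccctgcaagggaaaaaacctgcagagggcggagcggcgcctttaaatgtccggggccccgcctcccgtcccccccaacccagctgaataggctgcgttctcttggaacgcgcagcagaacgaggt
Pgk1: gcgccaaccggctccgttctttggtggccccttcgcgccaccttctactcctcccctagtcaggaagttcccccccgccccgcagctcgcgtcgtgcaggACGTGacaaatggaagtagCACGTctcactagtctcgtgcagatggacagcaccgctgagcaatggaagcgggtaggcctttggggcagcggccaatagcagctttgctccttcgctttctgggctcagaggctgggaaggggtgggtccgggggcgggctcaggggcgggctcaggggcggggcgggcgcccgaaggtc
Eno1: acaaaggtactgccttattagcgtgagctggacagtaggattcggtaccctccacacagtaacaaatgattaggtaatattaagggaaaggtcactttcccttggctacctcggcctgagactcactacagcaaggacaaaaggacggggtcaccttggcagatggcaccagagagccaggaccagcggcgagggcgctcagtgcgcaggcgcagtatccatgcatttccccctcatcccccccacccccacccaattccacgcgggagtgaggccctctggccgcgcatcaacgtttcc
Pkm: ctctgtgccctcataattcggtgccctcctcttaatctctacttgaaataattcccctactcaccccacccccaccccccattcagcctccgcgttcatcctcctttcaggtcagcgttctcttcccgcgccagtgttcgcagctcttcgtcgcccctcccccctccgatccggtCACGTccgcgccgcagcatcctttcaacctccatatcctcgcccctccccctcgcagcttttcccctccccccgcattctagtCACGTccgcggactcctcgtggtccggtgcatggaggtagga
Ldha: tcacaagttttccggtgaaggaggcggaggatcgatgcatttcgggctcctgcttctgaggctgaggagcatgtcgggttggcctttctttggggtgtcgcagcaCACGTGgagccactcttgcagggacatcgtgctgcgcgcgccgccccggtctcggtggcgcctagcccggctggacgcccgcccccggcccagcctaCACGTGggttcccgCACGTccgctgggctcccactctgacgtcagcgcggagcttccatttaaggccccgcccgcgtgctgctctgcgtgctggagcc
Mpc1: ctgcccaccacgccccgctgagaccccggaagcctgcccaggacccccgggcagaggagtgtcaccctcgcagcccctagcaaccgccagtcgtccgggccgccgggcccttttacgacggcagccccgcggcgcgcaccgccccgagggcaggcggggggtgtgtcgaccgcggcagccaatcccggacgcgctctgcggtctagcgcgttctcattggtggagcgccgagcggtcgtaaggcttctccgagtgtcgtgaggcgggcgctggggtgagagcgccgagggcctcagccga
Ldha has 3 separate places and Pgk1 and Pkm have 2 each, while Eno1 and Mpc1 have 0 at any start in the table.

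For glucose uptake, Slc2a1, which encodes the transporter GLUT1, was counted at 108, 71.4 and 62.9 CPM in Ctrl and at 74.5, 77.5 and 62.9 CPM in DTR. Slc2a3, which encodes GLUT3, was counted at 22.1, 14.5 and 14.8 CPM in Ctrl and at 14.7, 13.7 and 15.9 CPM in DTR. In both, Ctrl replicate 1 stood above the other 5 libraries and the groups overlapped. The log2 fold changes were -0.17 for Slc2a1 (adjusted p = 0.830, edgeR) and -0.22 for Slc2a3 (adjusted p = 0.769, edgeR), and without Ctrl replicate 1 they were 0.09 and 0.01. Per kb of exon, Slc2a1 made up between 89.1% and 92.1% of the 2 transporters in every library.

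Upper glycolysis starts with hexokinase, which traps glucose as glucose-6-phosphate. Hk1 was counted at 359, 382 and 358 CPM in Ctrl and at 306, 351 and 319 CPM in DTR, and the groups did not overlap. Hk1 had a log2 fold change of -0.17 (SE 0.0865, adjusted p = 0.648, edgeR). Hk2, the hexokinase known to respond to insulin and low oxygen, ran from 203 to 340.2 CPM in Ctrl and from 197 to 239.9 CPM in DTR. Its groups overlapped, and its share of the 2 hexokinases was 50.4% ± 6.55 in Ctrl and 49.6% ± 3.03 in DTR (SD, n = 3).

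Gpi1 (ENSMUSG00000036427, chr7:34201330-34230336 of GRCm38), glucose phosphate isomerase, was counted at 702, 665 and 646 CPM in Ctrl and at 589, 561 and 504 CPM in DTR. Every DTR library was below every Ctrl library. The log2 fold change was -0.28 (SE 0.0919, unadjusted p = 0.0154 and adjusted p = 0.602, edgeR) and stayed between -0.32 and -0.22 with each library left out in turn.

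Phosphofructokinase commits sugar to glycolysis and is built from liver (Pfkl), muscle (Pfkm) and platelet (Pfkp) subunits. Pfkl (ENSMUSG00000020277, chr10:77986947-78010083) was counted at 277, 267 and 223 CPM in Ctrl and at 188, 219 and 150.3 CPM in DTR. It had the lowest log2 fold change of upper glycolysis, -0.46 (SE 0.148, unadjusted p = 0.0147 and adjusted p = 0.602, edgeR), although the highest DTR library lay close to the lowest Ctrl library. Pfkp was counted at 318, 290.2 and 295 CPM in Ctrl and at 272, 279 and 259 CPM in DTR, without overlap, with a log2 fold change of -0.16 (adjusted p = 0.652, edgeR). Pfkm, between 51.7 and 63.4 CPM in all libraries, had a log2 fold change of -0.05 and overlapping groups. The share of Pfkl among the 3 subunits, per kb, was 49.2% ± 2.00 in Ctrl and 43.0% ± 4.57 in DTR (SD, n = 3; two-sided exact permutation test, p = 0.2, adjusted p = 0.314 over 11 shares, where 0.1 is the smallest p that 3 against 3 allow).

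The Pfkfb genes encode enzymes that set the level of fructose-2,6-bisphosphate, an activator of phosphofructokinase. Pfkfb2, the cardiac form, was near the floor, with 6, 0 and 15 counts in Ctrl and 35, 29 and 23 counts in DTR, or at most 0.527 CPM in Ctrl and 1.02 CPM in DTR. Its log2 fold change of 1.89 (SE 0.894, adjusted p = 0.634, edgeR) was the highest of all members and lay between 1.34 and 2.96 when single libraries were left out. Of its 50-base words, 15.9% also occur in Gm29427, which had 0 counts in each Ctrl library and 11, 1 and 0 counts in DTR, so the counts of Pfkfb2 are uncertain. Pfkfb3 (25.8 to 36.7 CPM) and Pfkfb4 (4.96 to 8.75 CPM) overlapped between groups, with log2 fold changes of -0.02 and 0.29.

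Aldolase splits the 6-carbon sugar. Aldoa (ENSMUSG00000030695, chr7:126795234-126800751) had the highest level per kb of the members, 495 ± 20.2 CPM per kb in Ctrl and 399 ± 39.9 in DTR (SD, n = 3). It was counted at 1425, 1507 and 1393 CPM in Ctrl and at 1266, 1184 and 1037 CPM in DTR. The groups did not overlap, and its log2 fold change was -0.31 (SE 0.102, unadjusted p = 0.0158 and adjusted p = 0.602, edgeR). Aldoc, known from brain, ran from 36.2 to 54.3 CPM in Ctrl and from 31.2 to 39.3 CPM in DTR, with a log2 fold change of -0.38 (adjusted p = 0.630, edgeR) and overlapping groups. Tpi1, triose phosphate isomerase, was counted at 597, 588 and 526 CPM in Ctrl and at 529, 485 and 399 CPM in DTR. For Tpi1 the log2 fold change was -0.28 (unadjusted p = 0.0504, adjusted p = 0.629, edgeR), and 1 DTR library lay above the lowest Ctrl library.

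**Figure D3:**
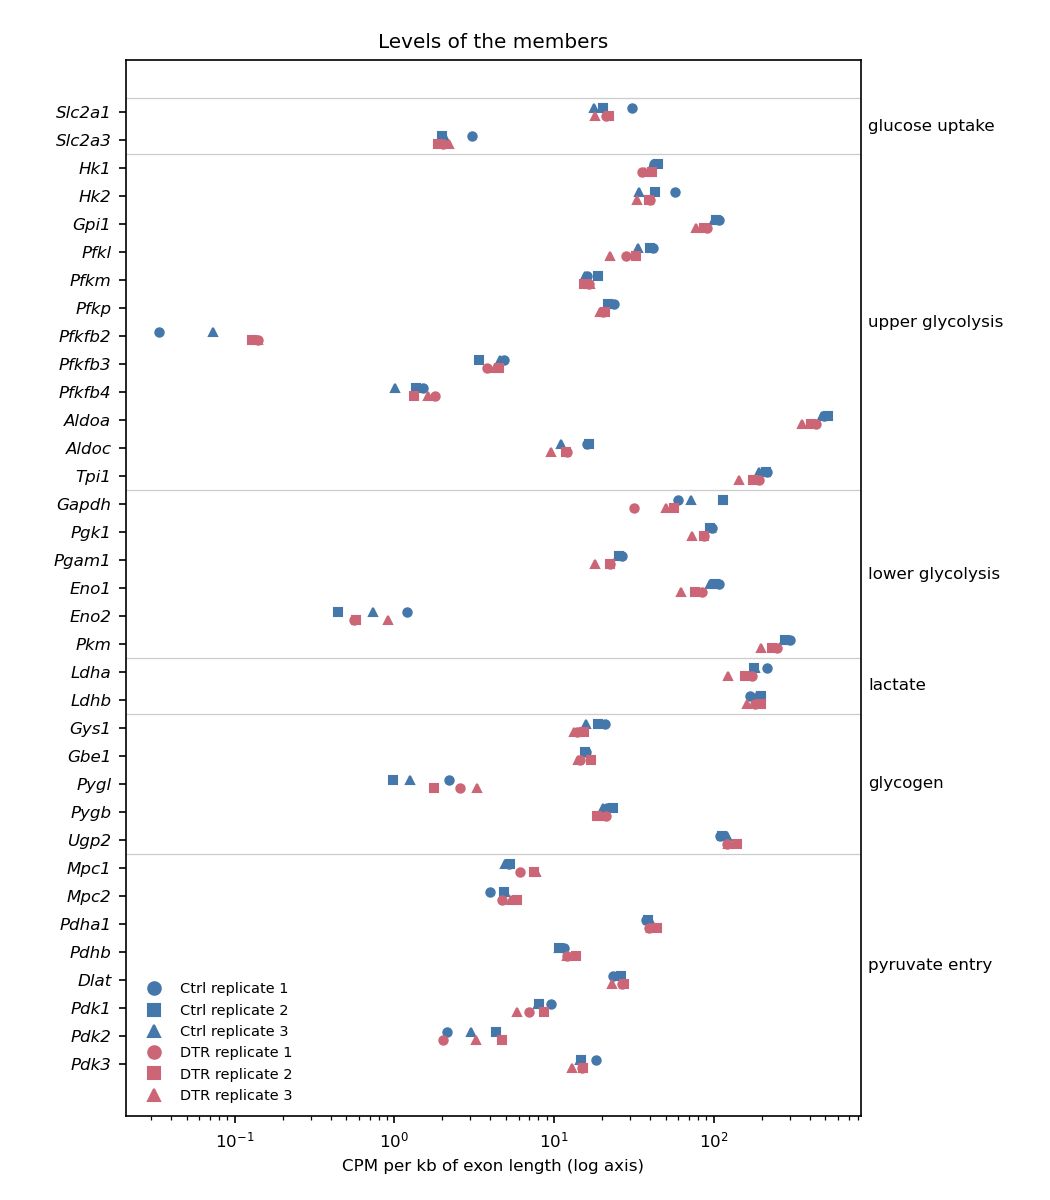
Levels of the members as CPM per kb of exon length (horizontal log axis) in each library, by step (vertical axis). Group means span from below 1 for Pfkfb2 and Eno2 to 495 in Ctrl for Aldoa, and a library at 0 (Pfkfb2, Ctrl replicate 2) is not drawn.

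Lower glycolysis showed the widest separation of the steps. Its summed level was 2620, 2695 and 2472 CPM in Ctrl and 2080, 2050.2 and 1731 CPM in DTR, without overlap, and its log2 difference lay between -0.46 and -0.33 when single libraries were left out. All 6 members had a log2 fold change below 0, 5 of them with an unadjusted p under 0.05 (edgeR), against 50.4% and 4.11% of all genes tested.

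Gapdh (ENSMUSG00000057666, chr6:125161715-125166467), which oxidizes glyceraldehyde-3-phosphate and also serves as a reference gene, was counted at 246, 471 and 298 CPM in Ctrl and at 131, 234 and 209 CPM in DTR. It had the lowest log2 fold change of the members, -0.82 (SE 0.279, unadjusted p = 0.0184 and adjusted p = 0.602, edgeR). Its Ctrl libraries differed among themselves by more than those of the other enzymes of lower glycolysis with high counts, and its highest DTR library lay just below its lowest Ctrl library. When single libraries were left out, its log2 fold change lay between -1.01 and -0.51. Of its 50-base words, 24.7% also occur in 218 other genes of the annotation. Gm7336, which shares most of them, had at most 5 counts in a library. Of the other reference genes named in the authors' qPCR methods, Hprt had a mean of 68.5 ± 4.14 CPM in Ctrl and of 69.2 ± 0.621 CPM in DTR, and Hsp90ab1 at 2990 ± 98.6 and 2490 ± 297 CPM (SD, n = 3).

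Pgk1 (ENSMUSG00000062070, chrX:106187100-106203699), the first ATP-making step, was counted at 220.0, 213 and 218 CPM in Ctrl and at 196, 194 and 164 CPM in DTR. Pgam1 (ENSMUSG00000011752, chr19:41911923-41918660), phosphoglycerate mutase, was counted at 52.8, 50.8 and 49.8 CPM in Ctrl and at 44.6, 44.8 and 35.7 CPM in DTR. Both had tightly spaced Ctrl libraries and no overlap. Their log2 fold changes were -0.23 and -0.29, and edgeR's quasi-likelihood test gave an unadjusted p of 0.0395 and 0.0343 and an adjusted p of 0.604 for each.

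Eno1 (ENSMUSG00000063524, chr4:150236721-150248879) encodes the widespread enolase and had the lowest unadjusted p of the members. It was counted at 580.2, 549 and 514 CPM in Ctrl and at 456, 413 and 334 CPM in DTR. For Eno1 the log2 fold change was -0.45 (SE 0.124, unadjusted p = 0.00691 and adjusted p = 0.602, edgeR) and lay between -0.54 and -0.33 when single libraries were left out. Eno2, the neuronal form, was counted at 5.64, 2.09 and 3.48 CPM in Ctrl and at 2.65, 2.71 and 4.28 CPM in DTR. It overlapped between groups and its log2 fold change of -0.22 was 0.20 without Ctrl replicate 1. Eno2 made up at most 1.44% of the 2 enolases per kb in any library.

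Pkm (ENSMUSG00000032294, chr9:59656368-59679375), pyruvate kinase, closes glycolysis and had the highest level of its step, 288 ± 13.5 CPM per kb in Ctrl and 226 ± 27.0 in DTR (SD, n = 3). It was counted at 1516, 1410 and 1390 CPM in Ctrl and at 1250, 1161 and 984 CPM in DTR, with a log2 fold change of -0.35 (SE 0.110, unadjusted p = 0.0138 and adjusted p = 0.602, edgeR). The M1 and M2 forms of its transcript are not separated in counts per gene. Words of 50 bases shared with other genes made up 53.9% of those of Pgk1, 36.2% of Pgam1, 26% of Eno1 and 25.8% of Pkm. Of the genes that share most with them, Pgk1-rs7 had at most 1, Pgam1-ps2 at most 13 and Eno1b at most 27 counts in a library. How reads that match several genes were counted is not given in the sources used here, so the counts of these genes and of Gapdh are uncertain to that extent.

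**Figure D4:**
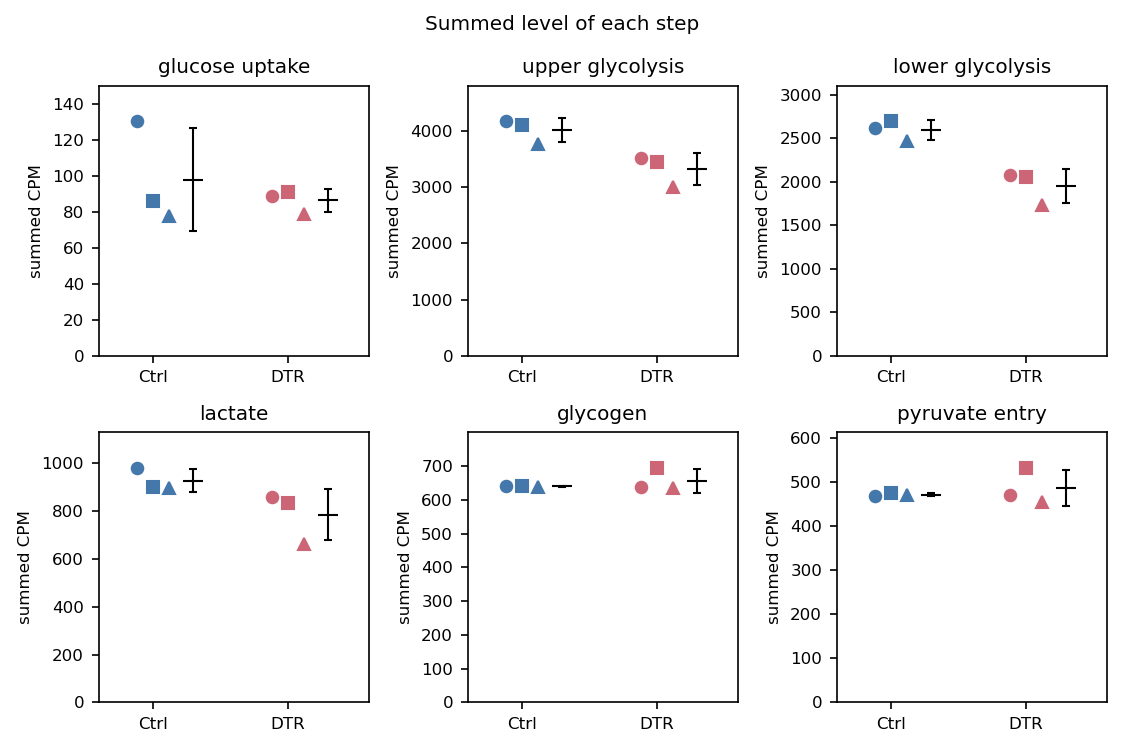
Summed CPM of the members of each step (vertical axes, from 0) in Ctrl and DTR, with 1 point for each library (circle, square and triangle for replicates 1, 2 and 3) and the mean with its SD (n = 3) in black. The 3 DTR libraries lie below all Ctrl libraries for upper glycolysis, lower glycolysis and lactate, and the groups overlap for glucose uptake, glycogen and pyruvate entry.

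Lactate dehydrogenase is built from the subunits of Ldha and Ldhb. Ldha (ENSMUSG00000063229, chr7:46841475-46855627), whose enzyme favors lactate, was counted at 715, 593 and 605 CPM in Ctrl and at 578, 521 and 407 CPM in DTR. Ldhb, the heart-type subunit, was counted at 267, 309 and 292 CPM in Ctrl and at 283, 312 and 255 CPM in DTR. Ldha did not overlap between groups and Ldhb did. The log2 fold change was -0.34 for Ldha (SE 0.143, unadjusted p = 0.0425 and adjusted p = 0.608, edgeR) and -0.03 for Ldhb (SE 0.103, adjusted p = 0.948, edgeR). The share of Ldhb in the 2 subunits, per kb, was 44.0%, 52.4% and 50.4% in Ctrl and 50.8%, 55.8% and 56.9% in DTR, a difference of 5.56 percentage points with overlapping groups (two-sided exact permutation test, p = 0.2, adjusted p = 0.314). Of the 50-base words of Ldhb, 21% also occur in a like gene.

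**Figure D5:**
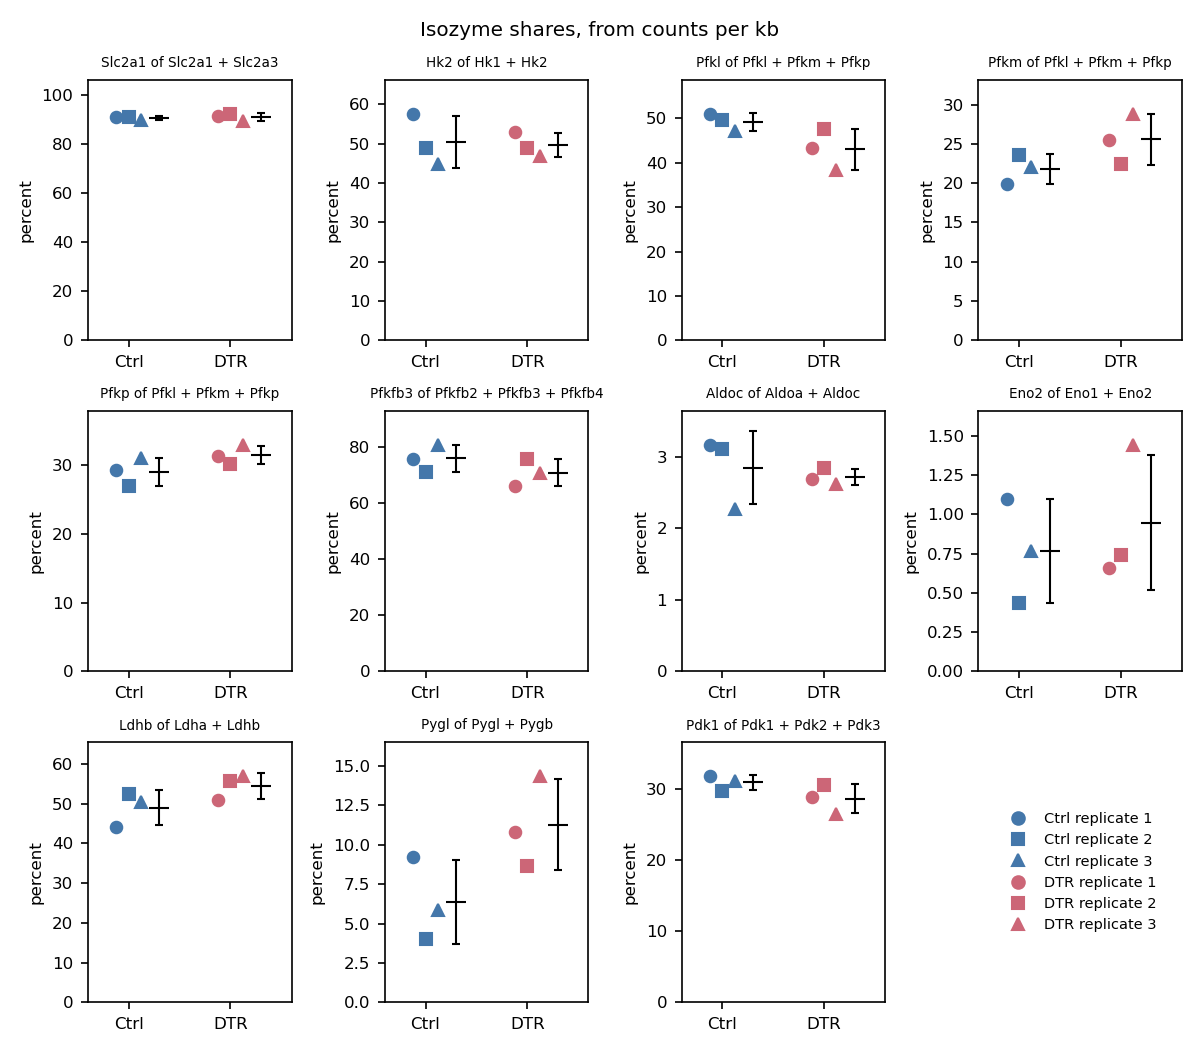
Share of 1 isozyme in its family, in percent (vertical axes, from 0) from counts per kb of exon, with 1 point for each library and the mean with its SD (n = 3) in black. The groups overlap in all 11 shares, with Pfkl of its family between 38.3% and 51.0% and Ldhb between 44.0% and 56.9%.

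All 11 isozyme shares overlapped between the groups, with adjusted p from 0.314 to 0.900 (two-sided exact permutation tests). None of these shares can be said to differ or to be alike between the groups from 3 libraries against 3.

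Among the 5 glycogen genes, 1 was lower and 1 was higher at an unadjusted p under 0.05 (edgeR), against 4.11% and 3.81% of all genes tested, and the summed level overlapped between groups. Gys1 (ENSMUSG00000003865, chr7:45434844-45456619), the muscle-type glycogen synthase that lengthens chains, was counted at 101, 90.2 and 76.3 CPM in Ctrl and at 67.1, 74.4 and 63.7 CPM in DTR. Every DTR library was below every Ctrl library, the closest pair by a narrow margin. For Gys1 the log2 fold change was -0.38 (SE 0.121, unadjusted p = 0.0140 and adjusted p = 0.602, edgeR). Pygl (ENSMUSG00000021069, chr12:70190811-70231488), the liver glycogen phosphorylase, was counted at 15.1, 6.74 and 8.68 CPM in Ctrl and at 17.8, 12.2 and 22.8 CPM in DTR. Its log2 fold change was 0.79 (SE 0.331, unadjusted p = 0.0444 and adjusted p = 0.615, edgeR), and Ctrl replicate 1 lay above the lowest DTR library. Pygb, the brain phosphorylase and by far the more abundant form, had a log2 fold change of -0.13.

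Ugp2, which makes UDP-glucose, was the most abundant glycogen gene per kb. It was counted at 338, 348 and 371 CPM in Ctrl and at 372, 427 and 377 CPM in DTR, without overlap but with 2 libraries almost level, and its log2 fold change was 0.16 (adjusted p = 0.666, edgeR). Gbe1, the branching enzyme, had 84.2 ± 0.473 CPM in Ctrl and 81.9 ± 8.52 in DTR (SD, n = 3). Neutrophils are known to use Pygl, and the 11 neutrophil genes summed to between 1.69 and 7.88 CPM in Ctrl and between 1.68 and 3.28 CPM in DTR. Of these genes, Ly6g and Camp were at 0 in every library, Csf3r had 72, 34 and 22 counts in Ctrl and 41, 13 and 32 in DTR, and Retnlg had 1, 0 and 0 counts in Ctrl and 8, 8 and 6 in DTR. S100a9 had 59 counts and Cxcr2 had 38 in Ctrl replicate 1, and each had at most 12 in any other library. Ctrl replicate 1 was the Ctrl library with the highest Pygl. Ltf had its most counts, 53, in Ctrl replicate 2, the Ctrl library with the lowest Pygl. Mpo had its most, 46, in DTR replicate 2, the DTR library with the lowest Pygl. In DTR replicate 3, where Pygl was highest of all, S100a8, S100a9, Cxcr2, Ltf and Mpo had 0 counts. The part of neutrophil transcripts in Pygl was not tested.

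Of the 8 genes of pyruvate entry, 6 had a log2 fold change above 0 and 2, Pdk1 and Pdk3, below 0. The summed level of the step was 468, 475 and 471 CPM in Ctrl and 471, 533 and 456 CPM in DTR, and DTR replicate 3 lay below every Ctrl library. Mpc1 (ENSMUSG00000023861, chr17:8282904-8297661), a subunit of the carrier that takes pyruvate into mitochondria, was counted at 268, 262 and 291 reads in Ctrl and at 439, 483 and 363 reads in DTR, or 10.7 ± 0.421 and 14.8 ± 1.76 CPM (SD, n = 3). The groups did not overlap. For Mpc1 the log2 fold change was 0.46 (SE 0.148, unadjusted p = 0.0144 and adjusted p = 0.602, edgeR) and lay between 0.40 and 0.57 when single libraries were left out. Mpc2, its partner, ran from 29.2 to 36.1 CPM in Ctrl and from 34.6 to 43.3 CPM in DTR, with a log2 fold change of 0.22 (adjusted p = 0.675, edgeR) and overlap. Of the 50-base words of Mpc1, 11% also occur in other genes, Mpc1-ps most of all. Mpc1-ps had 146, 124 and 312 counts in Ctrl and 194, 180 and 130 in DTR. In Ctrl replicate 3 it had more counts than Mpc1, so the counts of Mpc1 are uncertain to that extent.

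Of the pyruvate dehydrogenase subunits, Pdhb was counted at 44.7, 41.4 and 41.5 CPM in Ctrl and at 46.9, 53.0 and 46.7 CPM in DTR. These did not overlap, and the log2 fold change was 0.20 (SE 0.0990, adjusted p = 0.647, edgeR). Pdha1, the most abundant gene of this step per kb, was counted at 142, 144 and 149 CPM in Ctrl and at 147, 165 and 151 CPM in DTR, with a log2 fold change of 0.09. Of the 50-base words of Pdhb, 10.9% also occur in other genes. Dlat, the acetyltransferase subunit, had a log2 fold change of 0.05, and both overlapped between groups. The sum of the 5 carrier and subunit genes was 341, 360.3 and 362 CPM in Ctrl and 372, 412 and 367 CPM in DTR. This sum leaves out the 3 kinases of the step and was formed after the values had been seen, so it is a description, and the sum of all 8 genes overlapped between groups.

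Pyruvate dehydrogenase kinases switch the enzyme off, and Pdk1 is known to be raised by low oxygen. Pdk1 was counted at 74.2, 63.1 and 62.1 CPM in Ctrl and at 54.1, 67.8 and 45.6 CPM in DTR. Its log2 fold change, the lowest of the step, was -0.25 (SE 0.154, adjusted p = 0.682, edgeR), and DTR replicate 2 lay among the Ctrl libraries. Pdk2 and Pdk3 had log2 fold changes of 0.07 and -0.14 with overlapping groups, and without DTR replicate 2 that of Pdk2 was -0.27.

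The rest of the pathway was followed in 78 further genes, of which 60 were tested. At an unadjusted p under 0.05, 3 were lower and 1 was higher in DTR (5% and 1.67%, against 4.11% and 3.81% of all genes), 0 had an adjusted p under 0.05 (edgeR), and their median log2 fold change was -0.01. Of 7 genes tested for lactate transport and the further lactate dehydrogenases Ldhc and Ldhd, 1 was lower and 0 higher at that p. This was Bsg, basigin, which escorts lactate carriers to the membrane. It was counted at 620.3, 639.8 and 548 CPM in Ctrl and at 456, 458 and 406 CPM in DTR, with a log2 fold change of -0.45 (SE 0.0971, unadjusted p = 0.00163 and adjusted p = 0.602, edgeR). Slc16a3, the lactate exporter MCT4, had the lowest log2 fold change of that list, -0.58, and Slc16a7, with at most 1.83 CPM, the highest, 1.21. The groups of both overlapped.

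Among 10 other glycolytic enzymes tested, 1 was lower and 0 higher at an unadjusted p under 0.05 (edgeR). These are 10% and 0%, against 4.11% and 3.81% of all genes. Eno3, the muscle enolase, was counted at 26.1, 31.1 and 22.5 CPM in Ctrl and at 20.1, 15.1 and 12.2 CPM in DTR, a log2 fold change of -0.74 (unadjusted p = 0.00687, adjusted p = 0.602, edgeR). Pgam2, with at most 0.931 CPM, had the highest log2 fold change of that list, 1.05. The 10 skeletal muscle genes summed to between 4.65 and 8.30 CPM in Ctrl and between 5.76 and 7.27 CPM in DTR, with Myh4 at 0 in every library. Of the 5 muscle genes tested, 2 had a log2 fold change below 0 (Mylpf, -0.87, and Atp2a1, -0.11) and 3 above 0 (Ckm, 0.42, Tnnt3, 0.50, and Mb, 1.14), all with overlapping groups, and their part in Eno3 was not tested.

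Of 17 other glycogen genes tested, 1 was lower and 1 higher at an unadjusted p under 0.05 (edgeR). Each is 5.88%, against 4.11% and 3.81% of all genes. Pgm2, a phosphoglucomutase, was counted at 184, 163 and 158 CPM in Ctrl and at 154, 141 and 131 CPM in DTR (log2 fold change -0.25, unadjusted p = 0.0361, adjusted p = 0.604, edgeR). Stbd1, which binds glycogen, was counted at 1.23, 0.838 and 1.20 CPM in Ctrl and at 1.51, 2.45 and 3.13 CPM in DTR (log2 fold change 1.11, unadjusted p = 0.0283, adjusted p = 0.602, edgeR). Pygm, the muscle phosphorylase, had the lowest value of that list, -0.59, with overlap. None of the 8 other glucose transporters, 10 other pyruvate genes and 8 pentose phosphate genes tested reached an unadjusted p under 0.05 (edgeR, with 0 members of these lists at an adjusted p under 0.05). Their log2 fold changes ran from -0.42 for Slc2a2 to 0.67 for Slc2a13, from -0.33 for Pcx to 0.27 for Pdk4 and from -0.21 for Tkt to 0.13 for Pgls.

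Markers of cell types were set beside the glycolytic genes. The fibroblast sum was 14161, 5526 and 5452 CPM in Ctrl and 11318, 5960 and 14594 CPM in DTR, and 11 of its 12 genes had a log2 fold change above 0, with a median of 0.38. Of the 12 pigment-cell genes, 9 had a log2 fold change below 0, with a median of -0.08, and 1, Sox10 (-0.28), had an unadjusted p under 0.05 (edgeR). Other markers lower in DTR at that p, without overlap, were Mrc1 of macrophages (-0.57), Cd3d of T cells (-1.23) and Cspg4 of pericytes (-1.02). Vwf (0.51, without overlap) and Tek (1.84, with overlap) of endothelial cells were higher at that p. Over all genes tested, 4.11% were lower and 3.81% higher at that p. Cd3d had 13 to 43 counts in a library. Of 11 macrophage genes tested, 4 lay above 0 (Adgre1, Tyrobp, Lyz2 and Ptprc). So did 1 of 8 T cell genes (Trac), 1 of 5 pericyte genes (Myh11) and 4 of 5 endothelial genes. Of the other endothelial genes, Pecam1 (0.61) and Kdr (0.95) lay above 0 with overlap. Cdh5 had 12, 14 and 39 counts in Ctrl and 19, 8 and 0 in DTR (-1.53, with overlap). Emcn, Cldn5 and Egfl7 had at most 3 counts in a library, and Tek in DTR replicate 3 alone had 62.9 CPM. The 8 pericyte genes summed to between 19.3 and 44.9 CPM in Ctrl and between 11.6 and 19.4 CPM in DTR, and the 8 endothelial genes to between 27.0 and 34.5 CPM and between 33.2 and 100.3 CPM. The 12 macrophage genes summed to between 127 and 213 CPM in Ctrl and between 148 and 159 CPM in DTR, and the 8 T cell genes to between 7.02 and 43.3 CPM and between 14.0 and 18.6 CPM. The 8 Schwann cell genes summed to between 80.4 and 92.7 CPM in Ctrl and between 78.5 and 107.9 CPM in DTR. Keratinocyte, adipocyte and erythroid genes summed to at most 37.7 CPM in a library. The part of these transcripts in the values of the glycolytic genes was not tested.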

How the data were processed

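RNA-seq counts of 6 libraries, 3 Ctrl and 3 DTR, were used. The authors made stranded libraries of total RNA with a pico-input kit, trimmed reads with cutadapt 3.4, aligned them to GRCm38 with STAR 2.7.3a and counted them per gene with featureCounts 2.0.1 (versions per the submitters' processing notes). The deposited values used here are these raw counts. The table also holds the authors' normalized counts and their own comparison (fold changes, p-values and dispersions), which were not used. Nothing says which libraries came from separate animals, so p-values measure only the spread between these libraries. Between libraries of a group the counts differed by far more than sampling noise (mean chi-square per gene 46.2 or more), so none was taken as 1 library deposited again. Separate preparations of 1 sample would not be seen this way.

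Of 53801 genes, 15133 passed edgeR's filterByExpr (minimum count 10, minimum total 15). Counts were scaled by TMM and tested with edgeR's quasi-likelihood test without covariates, with Benjamini-Hochberg adjustment over all genes and a threshold of 0.05. Dividing the log2 fold change by the root of F gave its standard error. Exact permutation tests were two-sided. Exon lengths, positions and 50-base words shared between genes come from GENCODE M21 of GRCm38. The floor of 3 counts covers counting error only. Python 3.11.15 with pandas 2.3.3 and matplotlib 3.10.9 and R 4.3.3 with DESeq2 1.42.0, limma 3.58.1 and edgeR 4.0.16 were used, and the fits were tested on simulated data.

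The members, pathway lists, markers and tests were chosen with earlier results of these data known. All members are named. Values in every library are given for members with an unadjusted p under 0.05 or groups without overlap, for the lowest and highest log2 fold change of each step and for the most abundant gene of each step per kb. Of each pathway list, the lowest and highest log2 fold change and genes with an unadjusted p under 0.05 are named. Alternatives were DESeq2-type size factors, library size alone, the Wald test of DESeq2, a looser (1 count or more in some library) and a stricter gene filter (10 or more in all), robust moderation, the replicate number as a block, a loess offset (span 0.5) on genomic span, and each library left out.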

Additional observations from a re-analysis of the deposited data

How the results depend on the processing

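No member reached an adjusted p under 0.05 under any of the 14 alternatives (edgeR or DESeq2, lowest adjusted p 0.443 with edgeR and 0.186 with DESeq2). With each library left out, the count of members lower at an unadjusted p under 0.05 ran from 5 to 11, where 10 were found with all libraries, and the count of higher members from 1 to 2. The count of higher members was 1 with robust moderation and 1 with an offset for genomic span (against 3.59% and 2.16% of all genes). It was 3 with the Wald test of DESeq2 and 3 with the looser gene filter (against 2.93% and 4.19% of all genes). The offset moved the median log2 fold change over the members from -0.17 to -0.25 and that of glycogen from -0.04 to -0.21, and the median of all genes to -0.07. The cause was not tested. Leaving out a library put the median between -0.20 and -0.0874 over the members, between -0.40 and -0.29 for lower glycolysis and between -0.32 and 0.05 for glucose uptake. With library size alone the count of lower members was 7.

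The direction turned for 9 members. Leave-one-out ranges of the log2 fold change were -0.32 to 0.0939 for Slc2a1, -0.32 to 0.00823 for Slc2a3 and -0.51 to 0.20 for Eno2, where Ctrl replicate 1 decided the sign. They were -0.10 to 0.0350 for Pfkm, -0.16 to 0.0769 for Pfkfb3, -0.10 to 0.0398 for Ldhb, -0.13 to 0.0117 for Gbe1, -0.0035 to 0.12 for Dlat and -0.27 to 0.36 for Pdk2. Pfkfb3 was at 0.00245 with library size alone and Dlat at -0.00704 with the offset. The other 26 members kept their direction in every alternative. Among summed levels, the log2 difference ran from -0.30 to 0.0777 for glucose uptake, from -0.0089 to 0.0573 for glycogen and from -0.0249 to 0.0886 for pyruvate entry with each library left out. In percentage points, the differences in share ran from -0.413 to 1.10 for Slc2a1, from -3.61 to 2.80 for Hk2, from -0.421 to 0.0287 for Aldoc and from -0.0660 to 0.347 for Eno2.

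Same-numbered libraries of the groups had correlations of their deviations of 0.114, 0.132 and -0.042, so the numbers were not taken to pair them. With the replicate number as a block, 12 members were lower and 2 higher at an unadjusted p under 0.05 (edgeR), against 4.14% and 4.26% of all genes in that fit, 0 of 35 had an adjusted p under 0.05, and the median log2 fold change was -0.14 over the members. By step, that replicate block gave -0.17 for glucose uptake, -0.20 for upper glycolysis, -0.33 for lower glycolysis, -0.19 for lactate, -0.05 for glycogen and 0.07 for pyruvate entry. At 3 libraries a group, exact tests cannot go below p = 0.1, and Pfkfb2 lies too near the floor of 3 counts for its size to be fixed.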

Other observations

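Chosen after the values had been seen and given without a test, the counts of the 6 lower glycolysis genes over those of the 5 genes of the pyruvate carrier and dehydrogenase subunits (Mpc1, Mpc2, Pdha1, Pdhb and Dlat, without the 3 kinases of that step) were 7.69, 7.48 and 6.83 in Ctrl and 5.59, 4.98 and 4.72 in DTR. This ratio is taken within a library and does not depend on the scaling. Without Gapdh it was 6.97, 6.17 and 6.01 in Ctrl and 5.24, 4.41 and 4.15 in DTR.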
